A study of Mus musculus with 26 samples.

Results

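The 39 Hox genes of the mouse were examined in lists of open chromatin from striatal neurons, as 39 of 21883 protein-coding genes in the RefSeq table. They were taken by name, as every gene called Hoxa, Hoxb, Hoxc or Hoxd with a number, and stand in 4 clusters: HoxA with 11 genes, HoxB with 10, HoxC with 9 and HoxD with 9. ATAC-seq, whose transposase cuts DNA that nucleosomes do not cover, gave the open sites in nuclei of D1 and D2 medium spiny neurons (MSNs), the projection neurons that carry the dopamine receptors D1 and D2. The samples are of mouse brain, and the study is titled for the nucleus accumbens, the ventral striatum. Each cell type has 4 states: CC, cocaine relapse; CS, chronic cocaine followed by prolonged withdrawal; SC, acute cocaine; and SS, the baseline. The 26 libraries are 4 of D1 CC, 4 of D1 CS, 4 of D1 SC, 2 of D1 SS, 1 of D2 CC, 8 of D2 CS, 1 of D2 SC and 2 of D2 SS. Strain, age, sex, cocaine dose, how nuclei were separated and whether animals were pooled are not given in the sources used here. Every group has 1 peak list, so the values below have no replicate error and no test, read depth is unknown, and a difference between lists is a description of those lists.

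Hox genes encode homeodomain transcription factors that give cells their position along the body axis. Within a cluster they lie in the order in which they are used from the hindbrain to the tail, so that low paralog numbers act in front and high ones behind. The forebrain develops in front of their domain. In cells that do not use them the clusters are a textbook target of the Polycomb complexes, which place a repressive methyl mark on histones and compact the chromatin, while Trithorax complexes oppose them where the genes are on. ATAC-seq shows only whether a site is open. It does not measure the Polycomb mark or transcription, neither of which was analysed here.

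Over all 8 lists 17 peaks were assigned to a Hox gene, 16 of them at a promoter, meaning that the authors placed the centre of the peak within 1 kb of a start site. These belong to 6 genes: Hoxd1, Hoxa7, Hoxd8, Hoxd11, Hoxa4 and Hoxd3. The other 33 Hox genes had no peak in any list. HoxD held 11 of the peaks and HoxA 6, and HoxB and HoxC held 0. No Hox gene had a peak in all 8 lists, and D1 SC and D1 SS had none at all. A Hox gene had a promoter peak in 16 of 312 combinations of gene and list, or 5.13%, against 48.9% of such combinations over all protein-coding genes. Of the Hox genes 87.2% had a promoter peak in no list, against 39.9% of all protein-coding genes. The lists do not resolve single nuclei, so a site open in few nuclei and a site opened weakly in many cannot be told apart.

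Sequences of 3 start sites in HoxD are shown because they span what was seen. The first is the most often open Hox promoter. The second is the noncoding promoter most often open by the authors' assignment. The third is the start of the gene at the posterior end, which was open in no list. Each is 300 bases of the RefSeq table for GRCm38.p6, the same build as mm10, 5′ to 3′, from 250 bases before to 50 after the start. Capitals mark bases that lay under the peak in every list that had it. Hoxd1 is chr2:74762730-74763029 on the plus strand, with 49 bases in capitals. Hoxd3os1, a noncoding gene antisense to Hoxd3, is chr2:74716081-74716380 on the minus strand, with 96 bases in capitals. Hoxd13, known for its part in making digits and genital structures, is chr2:74667975-74668274 on the plus strand.
Hoxd1: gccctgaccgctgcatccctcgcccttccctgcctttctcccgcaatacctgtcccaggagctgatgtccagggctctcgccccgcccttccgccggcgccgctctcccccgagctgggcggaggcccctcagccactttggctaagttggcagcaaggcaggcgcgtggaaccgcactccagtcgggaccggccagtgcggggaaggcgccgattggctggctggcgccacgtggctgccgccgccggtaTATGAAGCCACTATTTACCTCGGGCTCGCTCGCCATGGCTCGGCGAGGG
Hoxd3os1: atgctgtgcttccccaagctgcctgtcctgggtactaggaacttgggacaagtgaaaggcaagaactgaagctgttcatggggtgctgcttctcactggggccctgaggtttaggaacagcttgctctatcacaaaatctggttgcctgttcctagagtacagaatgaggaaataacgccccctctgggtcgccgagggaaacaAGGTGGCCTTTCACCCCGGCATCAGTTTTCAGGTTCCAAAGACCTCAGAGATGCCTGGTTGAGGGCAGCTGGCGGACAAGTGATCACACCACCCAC
Hoxd13: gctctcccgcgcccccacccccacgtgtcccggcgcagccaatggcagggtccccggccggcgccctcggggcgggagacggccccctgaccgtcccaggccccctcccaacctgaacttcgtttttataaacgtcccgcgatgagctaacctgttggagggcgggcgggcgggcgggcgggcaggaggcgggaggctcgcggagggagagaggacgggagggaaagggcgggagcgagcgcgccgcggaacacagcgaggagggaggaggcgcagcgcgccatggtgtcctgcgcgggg
The Hoxd1 window holds 29 CG dinucleotides and is 69.7% G or C. The Hoxd3os1 window holds 5 and is 54.0% G or C. Hoxd13, with no peak in any list, has the most CG of the 9 HoxD genes, 37, and is 74.3% G or C.

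**Figure D1:**
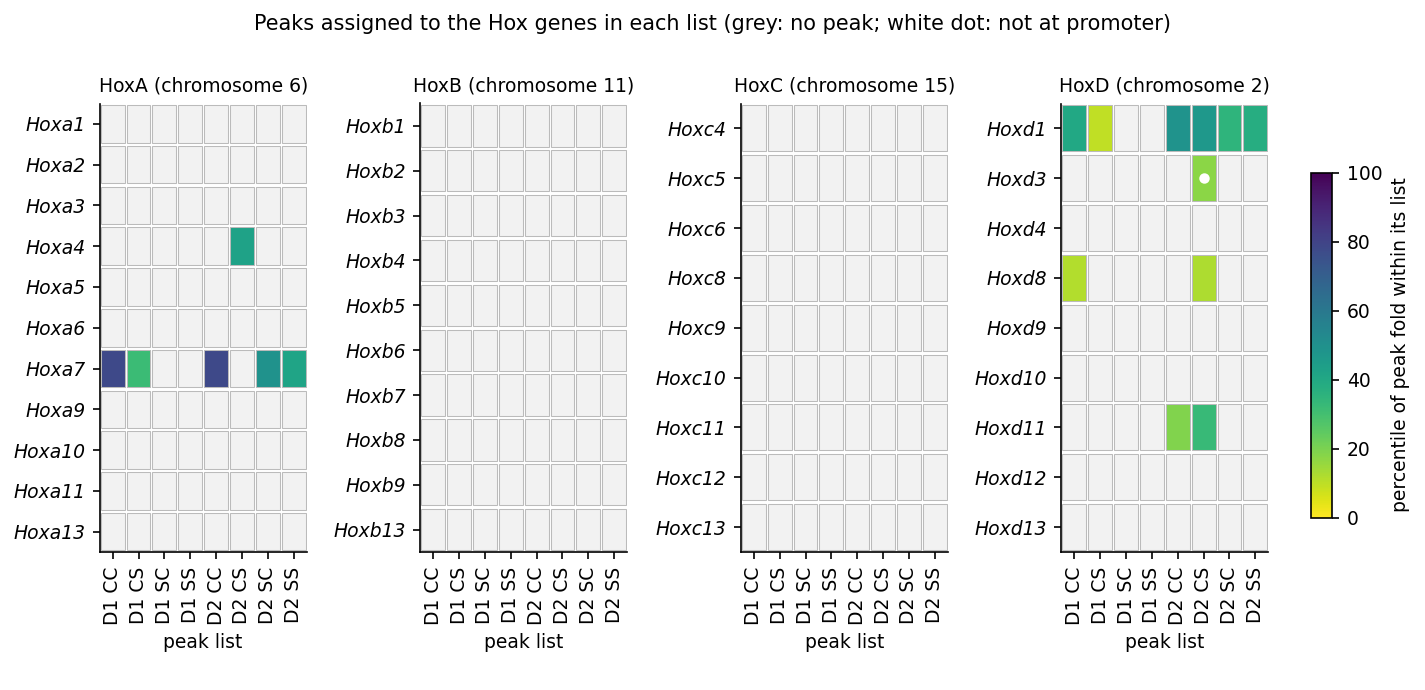
Peaks assigned to each Hox gene (rows, by cluster, low paralog number at the top) in each of the 8 peak lists (columns). Colour gives the percentile of the fold of the peak within its own list, grey means no peak, and a white dot marks a peak more than 1 kb from a start site. HoxB and HoxC are grey throughout, and Hoxd1 and Hoxa7 have peaks in 6 and 5 lists.

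The number of Hox genes with a promoter peak was between 0 and 4 of 39 in every list and below the share over all genes in every list. In D1 CC there were 3 (7.69%), against 55.1% of all protein-coding genes. In D1 CS there were 2 (5.13%), against 52.7%. D1 SC had 0, against 46.2%. D1 SS had 0, against 40%. Among the D2 lists, CC had 3 against 50.7%, CS had 4 (10.3%) against 47.5%, SC had 2 against 48.9% and SS had 2 against 50.5%. Counting a peak at any distance added only Hoxd3 in D2 CS. The counts were then 3, 2, 0 and 0 in D1 CC, CS, SC and SS, against 64%, 59.7%, 51.3% and 46.1% of all genes. In D2 CC, CS, SC and SS they were 3, 5, 2 and 2, against 59.2%, 52%, 56.9% and 58.5%. D2 CS, the shortest list with 27917 peaks, held the most Hox peaks. Among the other lists the number was never lower in a longer list. D1 SC with 28321 peaks and D1 SS with 28579 held 0. D1 CS with 48469, D2 SC with 58810 and D2 SS with 61818 held 2 each. D2 CC with 68444 and D1 CC, the longest with 77103, held 3 each. With every list shortened to its 27917 strongest peaks by q, Hoxa7 alone was left in D1 CC and in D2 CC, and 0 in D1 CS, D2 SC and D2 SS, against 38.9% to 45.8% of all genes. That length is the full length of D2 CS, which therefore could not change.

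**Figure D2:**
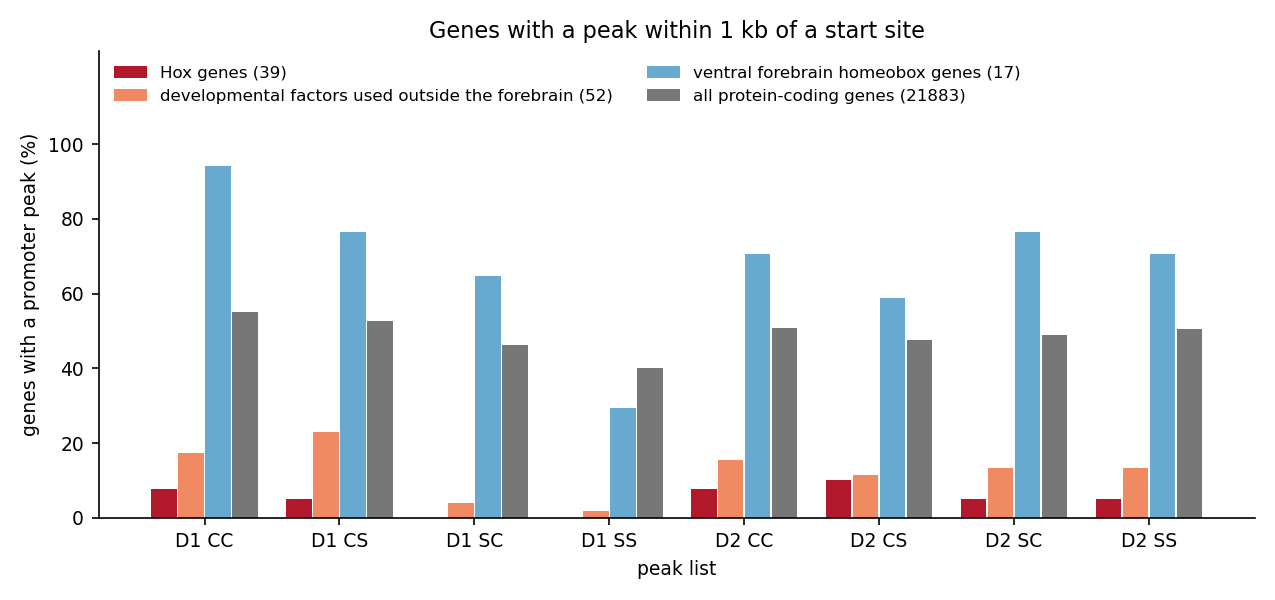
Share of genes with a peak within 1 kb of a start site (vertical axis, percent) in each peak list, for 39 Hox genes, 52 developmental factors used outside the forebrain, 17 ventral forebrain homeobox genes and 21883 protein-coding genes. The Hox bars reach 10.3% at most, and the bars for all genes lie between 40% and 55.1%.

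Hoxd1, the most anterior gene of HoxD, was the Hox gene open in the most lists, 6 of 8. The fold of a peak is the authors' enrichment over the background of the peak caller. It is not scaled between lists, so it was placed as a percentile within its own list. The Hoxd1 peak had a fold of 4.21 in D1 CC (percentile 40.1) and 3.34 in D1 CS (percentile 9.54). In D2 it had a fold of 4.38 in CC (percentile 48.6), 5.15 in CS (percentile 46.8), 4.20 in SC (percentile 35.1) and 3.92 in SS (percentile 37.8). It stood below the median fold of its list in all 6. Its width was 673 bp in D1 CC and 200 bp in D1 CS, and 397, 627, 341 and 625 bp in D2 CC, CS, SC and SS. The smallest width, 200 bp, is the least that any list holds. The 6 peaks together span chr2:74762744-74763450, and their centres lay from 19 bp before to 171 bp after the start at position 74762980, so that they cover the start and the first bases of the gene. The peaks of 5 lists, all but that of D2 SC, also overlap Haglr, a noncoding transcript at chr2:74748422-74762896 that lies beside Hoxd1. They overlap it at the border that faces Hoxd1. Whether this border is the start of Haglr was not examined.

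Hoxa7, a central gene of HoxA known for patterning the trunk, had a peak in 5 lists, and these included the strongest Hox peaks. Its fold was 6.36 in D1 CC (percentile 77.9) and 4.03 in D1 CS (percentile 31.7). In D2 it was 6.13 in CC (percentile 77.97), 4.74 in SC (percentile 48.9) and 4.06 in SS (percentile 41.7). Its q-value was 2.03e-17 in D1 CC and 3.40e-19 in D2 CC. These were the 2 Hox peaks above the median fold of their list. Both are from CC lists, which are the 2 longest, with 77103 peaks in D1 and 68444 in D2. D2 CC has 1 library, and ranks in lists of different length are not read as a change between states. D2 CS, which held the most Hox peaks, had none here, and neither did D1 SC or D1 SS. The peaks span chr6:52221275-52222050. They were assigned to Hoxa7 by a transcript of the authors' annotation that starts at 52221854. The RefSeq body of Hoxa7 lies at least 2.70 kb away, and that of Hoxa9 at least 1.05 kb away, so by the RefSeq table the site stands between Hoxa7 and Hoxa9 and over neither.

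The remaining Hox peaks were seen in 1 or 2 lists each, and all stood below the median fold of their list. Hoxd8, a central gene, had a peak with a fold of 3.25 in D1 CC (percentile 11.5) and 3.92 in D2 CS (percentile 12.2), over chr2:74705132-74705714. Hoxd11, a posterior gene known for forelimb and lower trunk patterning, had one with a fold of 3.36 in D2 CC (percentile 18.98) and 4.66 in D2 CS (percentile 32.6), over chr2:74682677-74682996. Both pairs of peaks overlap, so a site was found again at the same place. Hoxa4, known for patterning neck vertebrae, had a peak only in D2 CS, at chr6:52191247-52191498 with a fold of 4.97 (percentile 42.2). Hoxd3, which also acts in the neck, was assigned one only in D2 CS, at chr2:74746843-74747091 with a fold of 4.10 (percentile 17.5). That peak was centred 1245 bp from a start site and thus just outside the promoter limit. The peaks assigned to Hoxd3os1 also lie over the RefSeq body of Hoxd3, which was under a peak in 5 lists. Among promoter peaks, the farthest from a start was that of Hoxd11 in D2 CC, at 546 bp. By paralog group, 1 of 8 anterior genes (numbers 1 to 3) had a promoter peak in some list, 3 of 15 central genes (4 to 8) and 1 of 16 posterior genes (9 to 13), against 60.1% of all protein-coding genes.

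Peaks at Hox promoters by the authors' assignment were mostly narrow and weak by the scale of their own lists. They include those at the Hoxa7 site, which by the RefSeq table stands over neither Hoxa7 nor Hoxa9. Of the 16 promoter peaks 14 lay below percentile 50 of the promoter peaks of their list by fold, with a median percentile of 26.7 and a range of 9.37 to 61.5. Their median width was 410 bp, and by width their median percentile among promoter peaks was 23.2. The q-value of the Hoxd1 peak in D1 CS was 0.00102, and those of the Hoxd8 peaks were 0.000353 in D1 CC and 0.000493 in D2 CS. These 3 peaks are the least certain of the promoter peaks.

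**Figure D3:**
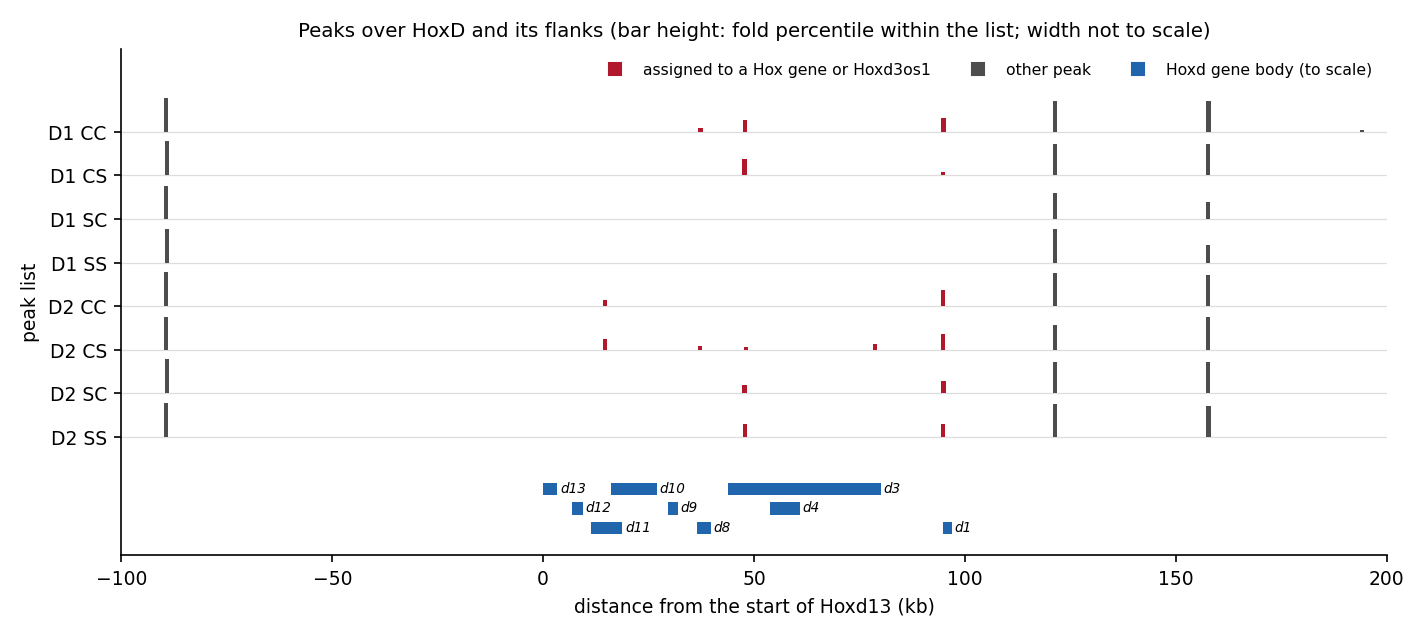
Peaks over HoxD and 100 kb on each side, by distance in kb from the start of Hoxd13 (horizontal axis), in each list (rows). Bar height is the percentile of fold within the list, red bars are assigned to a Hox gene or Hoxd3os1, grey bars are other peaks, and blue bars are gene bodies to scale. The flanking peaks at Lnpk, between Hoxd1 and Mtx2, and at Mtx2 stand in all 8 lists, while those inside the cluster stand in 6 lists at most.

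HoxD was the cluster with the most open sites, 5 in all. Besides the 4 Hox genes above, the promoter of Hoxd3os1 was open in 5 lists. Its fold was 4.02 in D1 CC (percentile 34.5), 4.61 in D1 CS (percentile 47.7), 3.77 in D2 CS (percentile 9.42), 3.83 in D2 SC (percentile 24.2) and 3.92 in D2 SS (percentile 37.8). D2 CC, which had the Hoxd1 and Hoxd11 peaks, had none at Hoxd3os1. Of 18 noncoding genes looked up in or directly beside the clusters, Hoxd3os1 and Haglr were the only ones under a peak, and Haglr only through the Hoxd1 peak. The others, among them the microRNA genes and the long noncoding genes Hotair and Hotairm1, lay under no peak in any list. The bases under peaks came to 16.4, 8.15, 0 and 0 bp per kb of HoxD in D1 CC, CS, SC and SS, against 15.6, 9.22, 5.13 and 5.25 bp per kb in the whole list. In D2 CC, CS, SC and SS they came to 6.73, 21.4, 7.76 and 9.60 bp per kb of HoxD, against 14.5, 5.08, 11.8 and 12.8 bp per kb in the whole list. Thus HoxD in D1 CC and D2 CS was covered at or above the level of its list, while its genes apart from Hoxd1, Hoxd3, Hoxd8 and Hoxd11 had no peak assigned.

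HoxB was empty. In all 8 lists nearly the same stretch of 359 to 360 kb held no peak (chr11:96076318-96435548 in D1 CC), and it contained all 10 HoxB genes together with Calcoco2, an autophagy receptor gene, and Ttll6, a tubulin ligase gene. The median distance between neighbouring peaks was 14.8 kb in D1 CC and 43.0 kb in D1 SS, the lowest and the highest of the 8 lists. An empty stretch with 12 or more protein-coding genes was uncommon but not confined to HoxB: in D1 CC there were 71 of them among 3024 empty stretches that held a gene. HoxC was empty as well, within a stretch of 274 kb in 7 lists (chr15:102819661-103093525 in D1 CC) and of 326 kb in D1 SS. HoxA lay whole in an empty stretch in D1 SC (242 kb) and D1 SS (627 kb), and HoxD in D1 SC and D1 SS (210 kb each).

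Distance to the nearest peak was measured without assigning peaks to genes. The median Hox gene body lay 44.7 kb from the nearest peak in D1 CC, 56.7 kb in D1 CS, 94.2 kb in D1 SC and 134 kb in D1 SS, and 56.7, 50.6, 56.7 and 56.8 kb in D2 CC, CS, SC and SS. The median over all protein-coding genes was 0 in every list, since a peak lay over the body itself. Hox genes more than 10 kb from any peak numbered 29 of 39 in D2 CS, the lowest count, and 39 of 39 in D1 SC and D1 SS, against 33.5%, 34.3% and 39.5% of all genes in those lists. No HoxB gene came closer than 67.3 kb to a peak, and no HoxC gene closer than 56.7 kb. Hoxb9 in HoxB was the farthest in 7 lists, at 159 kb, and Hoxa13 in D1 SS, at 246 kb.

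**Figure D4:**
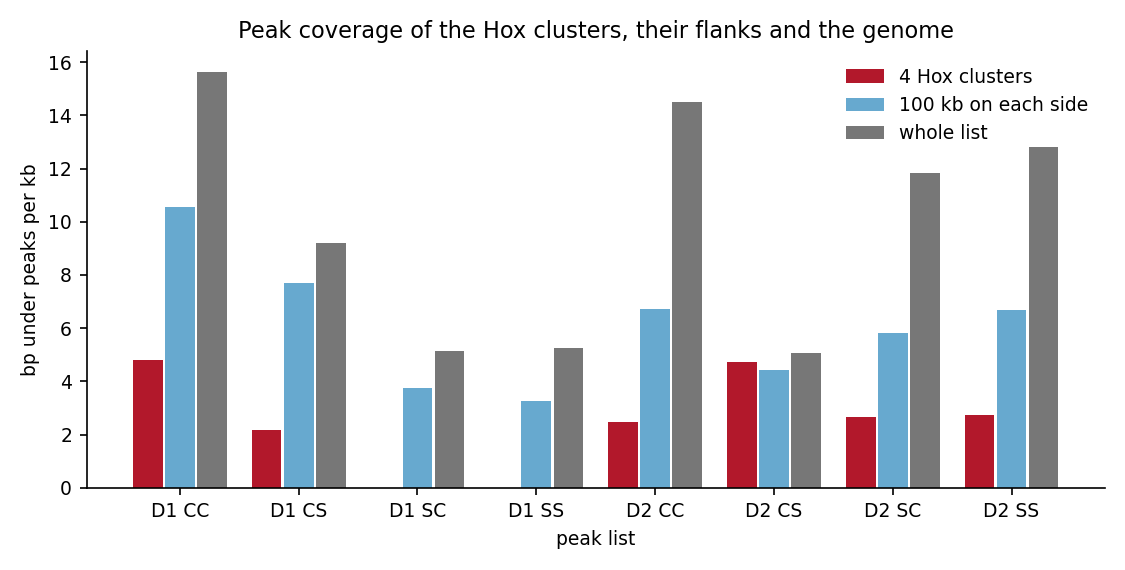
Bases under peaks per kb (vertical axis) in the 4 Hox clusters, in 100 kb on each side of them, and in the whole list, for each peak list. The clusters lie below the whole list in all 8 lists, nearest to it in D2 CS with 4.73 against 5.08 bp per kb, and are 0 in D1 SC and D1 SS.

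In 7 of the 8 lists the flanks were covered more densely than the clusters. The 492 kb of the 4 clusters held 4.80, 2.17, 0 and 0 bp of peak per kb in D1 CC, CS, SC and SS, against 10.6, 7.68, 3.75 and 3.25 bp per kb in the flanks of 100 kb. In D2 the clusters held 2.48 bp per kb in CC against 6.71 in the flanks, 2.66 in SC against 5.83, and 2.75 in SS against 6.68. D2 CS was the exception, with 4.73 bp per kb in the clusters and 4.44 in the flanks. With a q-value of at most 1e-05 the clusters held 2.43 bp per kb in D2 CS. With lists of equal length they held 1.58 in D1 CC, 1.15 in D2 CC and 0 in D1 CS, D2 SC and D2 SS. Of 7 open sites inside the clusters none was found in all 8 lists, whereas 4 of 15 in the flanks were. Of these 4, the promoter of Lnpk, which shapes the endoplasmic reticulum, ranked between percentile 97.8 and 99.9. The promoter of Mtx2, a mitochondrial import gene, ranked between 49.1 and 94.97. The others are assigned to no gene: a site 24.0 kb beyond Hoxd1 at chr2:74789156-74790140, with a fold of 6.49 to 9.60 and a percentile of 72.5 to 98.7, and a site 67.3 kb beyond Hoxb1 at chr11:96435549-96436242, with a fold of 4.30 to 8.39. A site 44.9 kb from HoxA on the side of Hoxa13 and a site 56.7 kb from HoxC on the side of Hoxc4 were open in 7 lists, all but D1 SS. Within 100 kb on the other side, beyond Hoxb13 and Hoxc13, no list had a peak.

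Genes next to the clusters differed from the Hox genes and from each other. Beside HoxD, Atp5g3, Lnpk and Mtx2 had a promoter peak in 8 lists and Atf2 in 4, while Evx2, the homeobox gene directly beside Hoxd13, had none. Beside HoxA, Hibadh and Snx10 had one in 8 lists, Skap2 in 6, Tax1bp1 in 3 and Evx1, the homeobox gene beside Hoxa13, in 0. Beside HoxB, Nfe2l1 and Snx11 had one in 8 lists and Cbx1 in 7, while Calcoco2, Skap1 and Ttll6 had 0. Beside HoxC, Calcoco1 and Cbx5 had one in 8 lists, Smug1 in 5, Nfe2 in 1 and Hnrnpa1 in 0. A peak is assigned to 1 gene, and Hnrnpa1 starts beside Cbx5, so its 0 says only that no peak carries its name.

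The 14 pairs of lists were compared for Hox promoters open in one and not in the other. In D1, Hoxa7 and Hoxd1 were open in CC and CS and not in SC or SS. D1 CC against D1 SS gave 3 Hox genes in CC alone (Hoxa7, Hoxd1 and Hoxd8) and 0 in SS alone, against 16.4% and 1.37% of all genes. D1 CS against D1 SS gave 2 in CS alone and 0 in SS alone, against 14% and 1.36%. D1 SC against D1 SS gave 0 and 0, against 8.27% and 2.08%. D1 CC against D1 SC gave 3 and 0, against 10.4% and 1.48%, and D1 CC against D1 CS gave 1 (Hoxd8) and 0, against 4.51% and 2.07%. With 39 genes, 3 is 7.69% and 2 is 5.13%, below the share over all genes for D1 CC and D1 CS against D1 SS and for D1 CC against D1 SC, and nothing particular to the Hox genes is read from them. With lists of equal length, D1 CS against D1 SS gave 0 Hox genes and D1 CC against D1 SS gave 1. These comparisons share the D1 SS, SC and CC lists with each other.

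In D2, Hoxd1 was open in all 4 states and Hoxa7 in all but CS. D2 CS against D2 SS gave 3 Hox genes in CS alone (Hoxa4, Hoxd8 and Hoxd11) and 1 in SS alone (Hoxa7), against 3.06% and 6% of all genes. D2 SC against D2 SS gave 0 and 0, against 1.82% and 3.37%. D2 CC against D2 SS gave 1 (Hoxd11) and 0, against 2.54% and 2.33%. D2 CC against D2 SC gave the same 1 and 0, against 3.48% and 1.73%. D2 CC against D2 CS gave 1 in CC alone (Hoxa7) and 2 in CS alone (Hoxa4 and Hoxd8), against 6.33% and 3.18%. Between cell types, D1 CC against D2 CC gave 1 (Hoxd8) and 1 (Hoxd11), against 6.26% and 1.81%, and D1 CS against D2 CS gave 1 (Hoxa7) and 3 (Hoxa4, Hoxd8 and Hoxd11), against 7.28% and 2.12%. D1 SC against D2 SC gave 0 in D1 and 2 in D2 (Hoxa7 and Hoxd1), against 2.92% and 5.61%, and D1 SS against D2 SS likewise 0 and 2, against 1.27% and 11.7%. In D2 CS the Hox share, 7.69% open there and not in D2 SS, is above the 3.06% of all genes. It rests on 3 genes, and 250 bp instead of 1 kb around the start leaves 0 of them. The 2 lists also differ in peaks on alternate patch sequences of the build, 71 in D2 CS and 7 in D2 SS.

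Lists of related genes set the Hox genes beside their regulators and partners. These lists were written with earlier results of these data known. Over all protein-coding genes, 35.6% had a promoter peak in every list and 39.9% in none. Of 30 Polycomb genes, 26 had a promoter peak in all 8 lists, among them Bmi1, a core subunit, and Aebp2, Cbx2, Cbx6 and Cbx7, and between 27 and 29 had one in each list. The exceptions, chosen after their values were seen, were Eed and Ezh1 in 7 lists, Rbbp4 in 6 and Pcgf2 in 1. Of 9 Trithorax and histone demethylase genes, 6 had one in all 8 lists: Ash2l, Dpy30, Kdm6a, Kmt2b, Rbbp5 and Wdr5. Of 9 genes for cofactors that bind DNA with Hox proteins, 5 did so, Pbx3 and Pknox1 among them, and Meis2 had one in 7 lists. Most of these partners and regulators had an open promoter in the same lists in which most Hox genes had none. Of 17 homeobox genes of the developing ventral forebrain, between 5 and 16 had a promoter peak per list. Of the 17, 5 had one in all 8, Dlx6, Isl1 and Zfhx3 included, a smaller share than over all genes. Only 1 of the 17 had one in no list, against 39.9% of all genes. Over genes and lists the 17 had a promoter peak in 67.6% of combinations, more than the 48.9% for all protein-coding genes. Some genes stand in both this list and the cofactors. Of 52 developmental factors used outside the forebrain, 0 had one in all 8 lists and 29 had one in none. Tbx18 had one in 7 lists, Foxa1 and Pax9 in 4 and Irx2 in 3. Over genes and lists these 52 had a promoter peak in 12.5% of combinations, beside 5.13% for the Hox genes and 48.9% for all protein-coding genes.

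The letters of the HoxD start sites were described beside their peaks. RefSeq windows were matched for 22 of the 39 Hox genes, too few for a statement on all of them, but for all 9 HoxD genes. These 9 had a median of 20 CG per window (4 to 37), beside 15 over 17491 protein-coding genes. Of the HoxD genes 6 fell in the upper 2 quartiles by CG, and 2 of these, Hoxd1 and Hoxd11, had a promoter peak in some list, beside 90.2% of 8382 genes in those quartiles. The Hoxd1 peaks lay over its window, but the Hoxd11 peaks lay outside the Hoxd11 windows. Hoxd13 with 37 CG, Hoxd10 with 22 and Hoxd3 and Hoxd9 with 20 had none. Of the letters searched on both strands, the Hoxd1 window held CCAAT once and GGGCGG 2 times, which 37.4% and 35.7% of all 32851 promoter windows hold at least once. With overlapping hits counted, the Hoxd13 window held TATAAA 2 times, CCAAT once and GGGCGG 7 times, and 13.6% of windows hold TATAAA. The 2 TATAAA hits overlap at 1 place, 1 on each strand, and some of the GGGCGG hits overlap in 1 repeat. The Hoxd3os1 window held none of these, nor TGATTNAT (Hox with Pbx, in 3.22% of windows), TGACAG (Meis, 19.2%) or GCCATNTT (the factor of the Yy1 gene, 6.05%). TGATTNAT occurred in 1 of the Hoxd11 windows.

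Markers of the labelled cells were checked. Of the 3 shared MSN genes, Ppp1r1b and Rgs9 had a promoter peak in all 8 lists and Bcl11b in 7, all but D2 CS. Drd2 was covered by 3159 to 6039 bp in the D2 lists, against 0 to 2554 bp in the D1 lists, and Adora2a by 1244 to 1627 bp, against 0 to 494 bp. The other D2 markers overlapped: Penk was covered by 615 to 1790 bp in D2, against 301 to 1028 bp in D1, and Gpr6 by 539 to 1918 bp, against 0 to 1581 bp. Of the D1 markers, Pdyn was covered by 421 to 779 bp in D1 and 0 to 328 bp in D2, and Tac1 by 666 to 2135 bp in D1 and 518 to 1569 bp in D2, which overlap. Drd1 had a promoter peak in all 8 lists, with 940 to 1780 bp in D1 and 603 to 1050 bp in D2, which overlap. Of 16 markers of astrocytes, oligodendrocytes, microglia and vessels, 13, 10, 3 and 5 had a peak in D1 CC, CS, SC and SS, and 7, 5, 5 and 7 in D2 CC, CS, SC and SS, covering 1454 to 10206 bp in D1 lists and 1840 to 5831 bp in D2 lists. Mobp and Tmem119 had none in any list. A peak was assigned to 64%, 59.7%, 51.3% and 46.1% of all protein-coding genes in D1 CC, CS, SC and SS. In D2 CC, CS, SC and SS the shares were 59.2%, 52%, 56.9% and 58.5%. D1 CC and CS, with 3 and 2 Hox peaks, had the most of these markers, 13 and 10. D1 SC and D1 SS, with no Hox peak, had 3 and 5. D2 CC, CS, SC and SS, with 3, 5, 2 and 2 Hox peaks, had 7, 5, 5 and 7. The part of these other cells in the Hox peaks was not tested. The lists also fall in 2 kinds by the sequences they cover: D1 CC, CS, SC and D2 CS hold 71 to 144 peaks on alternate patch sequences of the build and the others 4 to 7. Hoxd8 had a peak only in lists of the first kind, and Hoxa4 and Hoxd3 were assigned one in D2 CS alone. All D1 comparisons with D1 SS cross the 2 kinds. So do the D2 comparisons with D2 CS, and D1 against D2 in CC and SC. The part of this in the results was not tested.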

How the data were processed

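The data are 8 peak lists of ATAC-seq on D1 and D2 MSN nuclei, one per group, from 26 libraries. Per the submitters' processing notes the build is mm10, and MACS2, SAMtools, HISAT and cutadapt took part, with neither version nor role named. The sources used here do not say whether a group's libraries were merged before peak calling. Per the file headers, each peak has a fold enrichment (a ratio) and a q-value, both deposited by the authors, who also gave the distance in bp to the start site of the 1 gene assigned to it. The largest q-value was 0.0453. There are 0 columns of values per library, which leaves no replicate error and no test.

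The sex chromosomes and autosomes 1 to 19 were kept. Hox genes and all protein-coding genes came from the RefSeq table for GRCm38.p6, and 98.0% of the authors' protein-coding names matched it. A promoter peak has an absolute distance of at most 1 kb. Clusters run from the first to the last Hox gene body. Folds were ranked within a list only. Overlap of peaks with gene bodies, covered length and percentiles were tested on simulated data. The counts by the authors' gene names and distances were not part of that test. Every Hox gene could be named, and of each other gene list at most 6 genes, those with a promoter peak in the most lists first and then by alphabet. Some genes that this rule selects are not reported here, and 4 Polycomb genes were named outside it after their values were seen. The members and the lists were chosen with earlier results of these data known. Alternatives were an equal list length, a q-value of at most 1e-05, promoter limits of 250 and 2500 bp, RefSeq gene bodies, clusters without their ends, and ranking by q. Scripts ran in Python 3.11.15 with pandas 2.3.3 and numpy 2.4.6, and figures were drawn with matplotlib 3.10.9.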

Additional observations from a re-analysis of the deposited data

How the results depend on the processing

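With 1 list per group and no read counts, read depth is unknown, and its part in which weak sites were called was not tested. Nothing here separates libraries. No paired analysis was possible because the lists hold no values per library. HoxB and HoxC had no peak under any setting that removes peaks, since they have none at all. The 5 Hox genes with a promoter peak became 2 (Hoxd1 and Hoxa7) with a promoter limit of 250 bp, and in D2 CS 4 became 1. With every list shortened to its 27917 strongest peaks the count became 1 in D1 CC, 0 in D1 CS, 1 in D2 CC, 0 in D2 SC and 0 in D2 SS. That is the full length of D2 CS, so its 4 could not change. With a q-value of at most 1e-05, D1 CS had 1. The mean covered length of the clusters, 2.45 bp per kb over the 8 lists, became 0.932 at equal list length and 1.95 with the stricter q-value. In single lists, D2 CS went to 2.43 with the stricter q-value, and D1 CC to 1.58 and D1 CS to 0 at equal list length. The median percentile of promoter peaks among all peaks, 38.98, became 40.6 at equal list length, 30.7 with the stricter q-value, 41.7 and 37.8 with promoter limits of 250 and 2500 bp, and 29.6 when ranked by q.

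Hox promoters open in 1 list of a pair came to 28 over the 14 pairs, to 18 at equal list length and to 13 with 250 bp. At equal list length D1 CS against SS gave 0, D1 CC against SS 1, D1 CC against SC 1, D2 CC against CS 5, and D1 against D2 gave 0 in CC, 0 in SC and 0 in SS. With the stricter q-value D1 CS against SS gave 1, D2 CC against SS 0, D2 CC against SC 0 and D1 CC against D2 CC 0. With 250 bp D1 CC against CS gave 0, D2 CS against SS 1, D2 CC against SS 0, D2 CC against SC 0, D2 CC against CS 1, D1 CC against D2 CC 0 and D1 CS against D2 CS 1. Over RefSeq gene bodies 6 Hox genes had a peak, as in the authors' assignment, but with Hoxa3 in place of Hoxa7. The same 6 resulted with 1 kb added to each body, an alternative chosen after seeing the data.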
